A study of Drosophila melanogaster with 2 samples.

Results

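Hr78-GFP binding was examined at the nuclear genes of oxidative phosphorylation in whole Drosophila melanogaster embryos. The members were the protein-coding genes whose symbol begins with ND-, COX, UQCR-, ATPsyn or Sdh, or is Cyt-c1 or RFeSP, on the 6 chromosome arms used. This rule, which takes no binding value, gave 90 of 13945 protein-coding genes: 40 of complex I, 8 of complex II, 11 of complex III, 16 of complex IV and 15 of complex V. Of these, 65 were canonical subunit genes, 24 were paralogues, whose symbol adds L, L1 or L2 to a subunit's name, and 1, Sdhaf3, was an assembly factor. Subunits that carry other symbols, such as blw (ATP synthase alpha), cype and levy, are outside the rule.

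The study held a single group, Hr78-GFP ChIP, with 2 biological replicates, numbered 1 and 3, and no second condition. Embryos of both sexes were collected at 8 to 16 h. They carried a stable transgene for Hr78 fused at its C terminus to eGFP, and chromatin was precipitated with an anti-GFP antibody. The labels give 1 donor line for both replicates and do not say whether the collections were separate. A gene was called bound when a peak summit lay within 1000 bp of any of its annotated transcript start sites. The optimal list held 5723 reproducible peaks, with signals from 271.7 to 22397. The pooled list, called on both replicates together, held 30000 peaks down to a signal of 45.69, and 76.5% of them had a deposited q-value of at most 0.05. Read depth is unknown, since no file gave read counts. With 1 group, no test between conditions was possible, and counts and shares are given as descriptions.

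The mitochondrial respiratory chain passes electrons from NADH and succinate to oxygen, and complex V makes ATP from the proton gradient that results. Complex I oxidises NADH, complex II is succinate dehydrogenase, complex III passes electrons from ubiquinol to cytochrome c, and complex IV reduces oxygen. Most subunits are encoded in the nucleus by short genes that are expressed in nearly every tissue. Hr78 is an orphan nuclear receptor related to the vertebrate testicular receptors, and receptors of this kind bind the hexamer AGGTCA and repeats of it.

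The summit sequences of the members bound in the optimal list are shown first, because these are the sites that the optimal list places within 1000 bp of a member's start. Each is taken from release 6 of the genome, plus strand, and covers 50 bp to either side of the summit; bases annotated as untranslated were left out at ND-42, where the window starts 8 bp beyond the summit. Capitals mark matches to any of the 10 motifs searched. The windows are COX7AL2 at 2L:2197063-2197163, ND-ASHI at X:6679317-6679417, ND-51 at 2L:6062804-6062904, ATPsynG at 2L:10977274-10977374, ATPsynE at 3R:14327859-14327959 and ND-42 at 3R:22027481-22027523.
COX7AL2: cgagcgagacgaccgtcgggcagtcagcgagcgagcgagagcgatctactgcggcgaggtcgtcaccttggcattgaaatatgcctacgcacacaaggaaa
ND-ASHI: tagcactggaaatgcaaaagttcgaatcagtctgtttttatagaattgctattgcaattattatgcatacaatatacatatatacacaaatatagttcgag
ND-51: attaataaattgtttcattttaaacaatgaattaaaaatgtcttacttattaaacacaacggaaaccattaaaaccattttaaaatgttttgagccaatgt
ATPsynG: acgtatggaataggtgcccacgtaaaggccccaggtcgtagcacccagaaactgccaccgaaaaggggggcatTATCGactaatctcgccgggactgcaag
ATPsynE: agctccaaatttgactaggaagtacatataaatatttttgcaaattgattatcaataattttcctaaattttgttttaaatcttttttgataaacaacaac
ND-42: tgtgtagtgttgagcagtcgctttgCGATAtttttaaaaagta
No form of the receptor hexamer appears in any of the 6 windows of 101 bp. The marked bases are CGATA, which the insulator protein BEAF-32 binds, on the minus strand at ATPsynG and on the plus strand at ND-42. Over all optimal summits within 1000 bp of a protein-coding start site, 15.6% held CGATA within 50 bp. Base composition ranged widely, with G and C making up 59.4% of the 101 bp at COX7AL2 and 21.8% at both ND-51 and ATPsynE. The median of the 6 windows was 31.2%, against 42.6% over the 2534 optimal summits within 1000 bp of a protein-coding start site (quartiles 31.7% and 50.5%).

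Few oxidative phosphorylation genes were bound in the optimal list. Of the 90 members, 6 (6.67%) had a summit of that list in the window, against 910 of 8548 other short genes (10.6%; span at most 3000 bp) and 2298 of all 13945 protein-coding genes (16.5%). Shares were closer in the pooled list: 27 members (30%), against 2525 other short genes (29.5%) and 5383 of all genes (38.6%). The pooled share of the members was therefore near that of other short genes, and the optimal share below it. No test over genes was made, so neither difference is called. Members were short, with a median span of 1100 bp against 1385 bp in the other short genes. When members were also held to 3000 bp, 5 of 77 (6.49%) had an optimal summit and 22 (28.6%) a pooled one. Up to 1000 bp, the optimal shares were 5.41% in members and 6.29% in other genes, and the pooled shares 32.4% and 23%. From 1000 to 2000 bp they were 8.82% and 11.3%, and 26.5% and 30%. From 2000 to 3000 bp, with 6 members, they were 0% and 14.9%, and 16.7% and 36.9%. The order of the pooled shares thus differed between span classes.

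**Figure D1:**
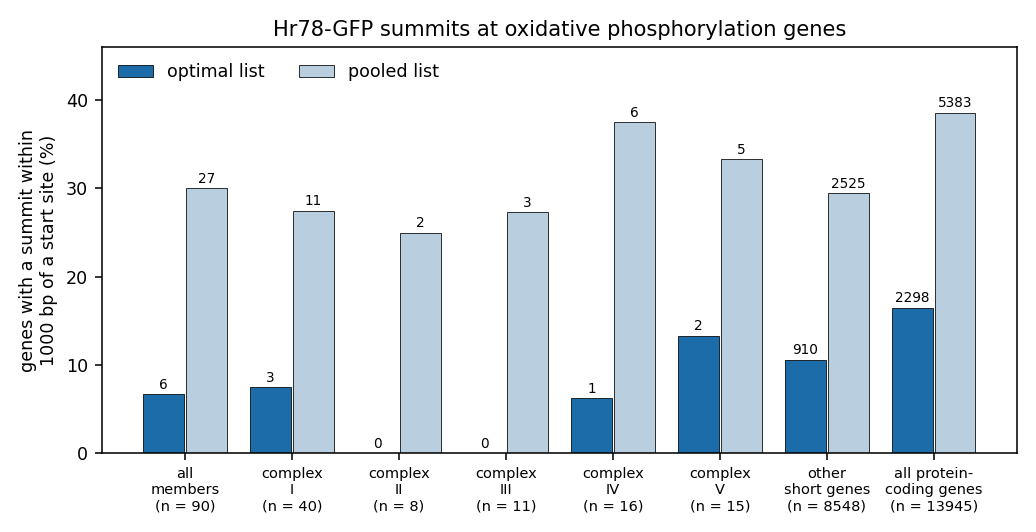
Share of genes (vertical axis, %) with a summit within 1000 bp of a start site, for all 90 members, each complex, the 8548 other short genes and all 13945 protein-coding genes. Dark bars are the optimal list and light bars the pooled list, and the number above each bar is its count of genes; members stood at 6 and 27 genes, and complexes II and III had no optimal gene.

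Each complex rested on few bound genes. Complex I had 3 bound members of 40 in the optimal list (7.5%) and 11 in the pooled list (27.5%). Complex V had 2 of 15 (13.3%) and 5 (33.3%), and complex IV had 1 of 16 (6.25%) and 6 (37.5%). Complexes II and III had none in the optimal list, and 2 of 8 (25%) and 3 of 11 (27.3%) in the pooled list. All pooled shares thus lay between 25% and 37.5%, on either side of the 29.5% of other short genes. The canonical genes alone were spread more widely, with pooled shares of 12.5% in complex III (1 of 8), 32.4% in complex I (11 of 34), 45.5% in complex V (5 of 11) and 50% in both complex II (2 of 4) and complex IV (4 of 8).

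COX7AL2 stood far above the other members. It is a paralogue of COX7A, which encodes a small nuclear subunit of cytochrome c oxidase, and it lies on the minus strand at 2L:2192525-2197912. Its summit at 2L:2197113, within its own intron and 799 bp downstream of its nearest start site, had a pooled signal of 4452 and rank 27 of 30000. The replicate signals were 2265 in replicate 1 (rank 30) and 2251 in replicate 3 (rank 21), so both replicates placed it among their highest peaks. A second optimal summit, also in an intron of the gene, at 2L:2193604, was 594 bp from a start site and had a signal of 363. No other protein-coding start site lay within 1000 bp of the main summit. The next member, ND-ASHI, had a signal of 545.

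Complex I contributed ND-ASHI, ND-51 and ND-42, each at a divergent promoter, where a gene on the other strand starts close by and is read the opposite way. ND-ASHI, a supernumerary subunit gene on the minus strand at X, had a pooled signal of 545 (rank 2033), with 314 in replicate 1 (rank 2075) and 231 in replicate 3 (rank 2297). The summit lay 249 bp upstream of ND-ASHI and 273 bp from the start of its partner Fum1, which encodes the citric acid cycle enzyme fumarase, in an intron of that gene. A weaker pooled summit, with a signal of 83.6, was only 42 bp from an ND-ASHI start.

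ND-51 encodes the flavoprotein of complex I that takes electrons from NADH. Its summit at 2L:6062854 was intergenic, 97 bp upstream of ND-51 and 135 bp from the start of CG13994. The pooled signal was 379 (rank 3584), with 191 in replicate 1 (rank 4450) and 203 in replicate 3 (rank 2858). Replicate signals come from lists with different scales, so only the ranks are comparable.

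ND-42, another supernumerary subunit gene, had the lowest signal of the optimal members. It was 297 in the pooled list (rank 5081), 147 in replicate 1 (rank 6429) and 128 in replicate 3 (rank 5687). The summit, 236 bp upstream of ND-42, was 7 bp from the start of Cchl, which encodes cytochrome c heme lyase, and lay in the annotated 5' UTR of that gene. A second pooled summit with a signal of 196 was 35 bp from the ND-42 start.

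Complex V contributed ATPsynG and ATPsynE, subunits of the membrane part of ATP synthase, and in both cases the summit was nearer to another gene. At ATPsynG the pooled signal was 322 (rank 4509), with 178 in replicate 1 (rank 4975) and 144 in replicate 3 (rank 4864). That summit lay 925 bp upstream of ATPsynG, in an intron of SCAR, an activator of actin branching, whose start was 552 bp away. A pooled summit 54 bp from an ATPsynG start had a signal of only 53.3. ATPsynE had a pooled signal of 305 (rank 4871), at a summit 841 bp downstream of its start and 142 bp from the start of spn-B, a DNA repair gene. Replicate 3 had this peak with a signal of 149 (rank 4637). In replicate 1 no peak held the summit or had its own within 200 bp.

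Nearest start sites therefore split the 6 optimal members evenly. For COX7AL2, ND-ASHI and ND-51 the member's own start was the nearest, and for ATPsynG, ATPsynE and ND-42 it was that of SCAR, spn-B and Cchl. Counting only summits nearest to the gene's own start left 3 members (3.33%), against 7.25% of other short genes and 13.4% of all genes. The same count in the pooled list left 20 members (22.2%), close to the 22.9% of other short genes, against 33.1% of all genes. When only the strongest pooled summit of each gene was taken, it was nearest to the member's own start in 14 of the 27 bound members (51.9%), against 71.1% of the bound other short genes and 79.6% of all bound genes. Which gene of a shared promoter a peak acts on was not tested.

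Below the optimal list, 21 further members had a pooled summit, and most of these were close to a start site. UQCR-6.4L, with a signal of 265.7, stood just under the lowest optimal signal of 271.7; its summit was 985 bp downstream, in an intron of Mipp1, within which it is nested. UQCR-11L, nested in Acsl, followed with 239, at 520 bp. Both are paralogues of small complex III subunits. UQCR-6.4L ranked 5674 in replicate 1 and 6607 in replicate 3, and UQCR-11L ranked 6002 and 7586.

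Next were ATPsynCF6, the coupling factor subunit, with 223, and ATPsynC, which encodes the membrane rotor ring, with 208 at 7 bp from its start. ATPsynCF6 ranked 5849 in replicate 1 and 11815 in replicate 3, while ATPsynC ranked 10029 and 8971. ND-B8 had 205, 118 bp upstream, and SdhC, a membrane anchor of succinate dehydrogenase, had 204, at a summit 1 bp from the start of its divergent partner Tctp. COX5A, a structural subunit of cytochrome c oxidase, had 192 at 89 bp, and ND-MNLL had 181 at 119 bp. The last 4 of the 12 highest were ATPsynD (161), COX7B (150), ND-75 (144), the large iron-sulfur subunit of complex I, and ND-39 (143).

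The other 9 bound members ran from ND-ACP, the mitochondrial acyl carrier protein, with 142, and Cyt-c1, the cytochrome c1 gene of complex III, with 137, to ND-15 with 61.4. Between them were COX5B, ND-13B, COX7C, ND-13A, COX7CL and SdhD. For COX7CL, SdhD and ND-15 the deposited q-value was above 0.05. Without such peaks 24 members (26.7%) remained, against 26.4% of other short genes and 35.7% of all genes.

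**Figure D2:**
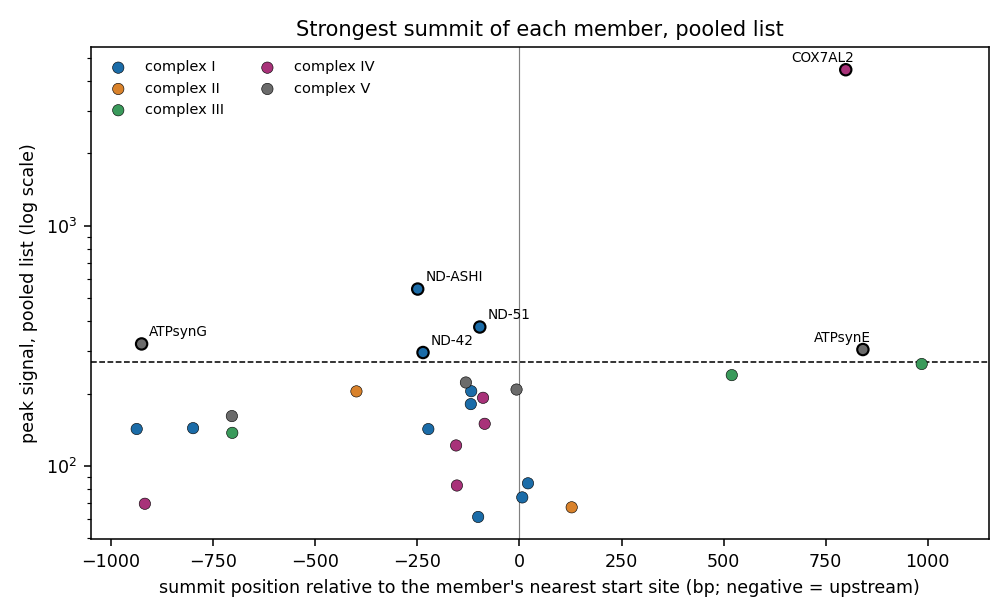
Signal of the strongest pooled summit (vertical axis, log scale) against its position relative to the member's nearest start site (horizontal axis, bp, negative upstream), one point per bound member, coloured by complex. Points with a heavy outline are in the optimal list, whose lowest signal, 271.7, is the dashed line; COX7AL2 at 4452 is apart from the other 26.

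Signals at bound members were compared with those at other bound genes by their medians. The median optimal signal was 350 over the 6 members, against 503 over 910 other short genes and 521 over all 2298 bound genes. Pooled medians were 181, 191 and 229 in the same order. The order was not the same in every class: among genes of at most 1000 bp the pooled median was 205 in members and 156 in the other genes, and among genes without a divergent partner it was 175 in members and 155 in other short genes. Of the 27 strongest member summits, 20 lay upstream of the start (74.1%), against 74.3% in bound other short genes, and 16 lay within 250 bp (59.3%, against 51.9%). Weaker summits were often closer, so that 21 members had some pooled summit within 250 bp of a start, and 13 had more than 1 summit in the window. The share of other genes with more than 1 summit was not counted, so the 13 cannot be placed against a background. In the pooled list the closest member outside the window was UQCR-Q, at 1036 bp, followed by ND-B14.7 at 1285 bp and SdhAL at 1398 bp. Just inside were UQCR-6.4L at 985 bp, COX7CL at 917 bp and ATPsynE at 841 bp. For optimal summits the closest members outside were ATPsynCF6 at 1032 bp (signal 534) and ATPsyndelta at 1409 bp (473). After these came ND-39 at 1627 bp (408) and SdhC at 1677 bp, whose summit had a signal of 1825.

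**Figure D3:**
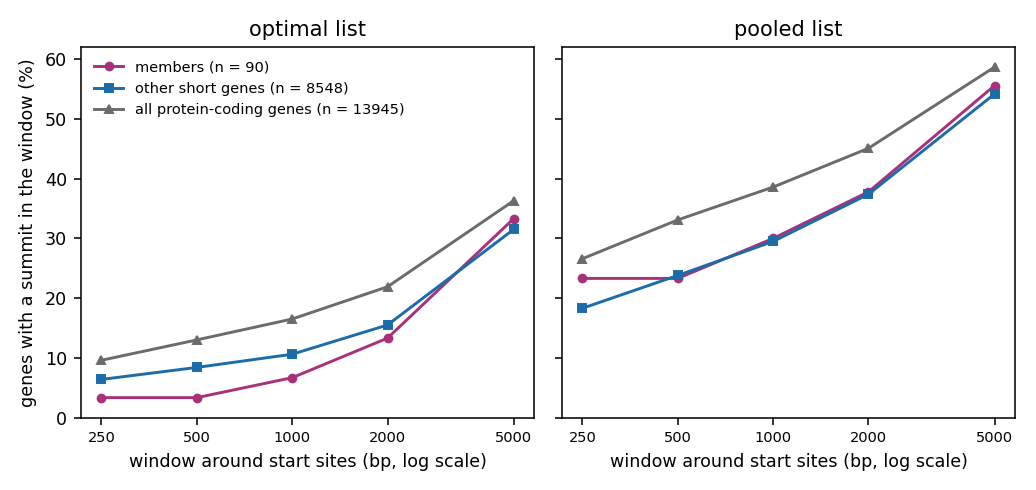
Share of genes (vertical axis, %) with a summit in windows of 250, 500, 1000, 2000 and 5000 bp around start sites (horizontal axis, log scale), in the optimal list (left) and the pooled list (right), for 90 members, 8548 other short genes and 13945 protein-coding genes. In the optimal list members ran below other short genes up to 2000 bp, at 3.33% against 8.39% within 500 bp, and at 5000 bp the shares were 33.3% and 31.5%.

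Of these windows, the gap to other short genes in the optimal list was widest at 500 bp. Within 250 bp, 3 members (3.33%) had an optimal summit, against 6.38% of other short genes and 9.59% of all genes. At 2000 bp the members reached 12 (13.3%), against 15.5% and 21.9%. In the pooled list, in contrast, 21 members (23.3%) had a summit within 250 bp, against 18.3% of other short genes and 26.6% of all genes. Median distances from a gene's start to the nearest summit were 9953 bp for members and 10186 bp for other short genes in the optimal list, and 3902 and 4129 bp in the pooled list.

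Members without a pooled summit in the window numbered 63, and 40 of these had none within 5000 bp of a start. Such absence was about as common in other short genes. A pooled summit lay within 5000 bp in 55.6% of members, against 54.2% of other short genes and 58.7% of all genes. Within 1000 bp the shares were 30%, 29.5% and 38.6%. Members without a summit in the window include some catalytic and core subunits of several complexes. Other core subunits, namely ND-51, ND-75 and Cyt-c1, were bound in the pooled list. In complex I the core subunits without a summit were ND-49, ND-30, ND-24, ND-23 and ND-20. Their nearest pooled summits were from 4258 bp (ND-24) to 85946 bp (ND-20) away. SdhA, the flavoprotein of succinate dehydrogenase, was 17419 bp from the nearest pooled summit, and SdhB, its iron-sulfur subunit, 2289 bp. In complex III the distances were 1846 bp for RFeSP, the Rieske iron-sulfur protein, 36344 bp for UQCR-C1 and 11762 bp for UQCR-C2, both core proteins. Of the structural, not catalytic, subunits of complex IV, COX4 was at 3987 bp and COX6B at 6589 bp. ATPsynbeta, the catalytic subunit of ATP synthase, was at 22203 bp and ATPsyngamma, its central stalk, at 8233 bp. The gene blw, which encodes the alpha subunit, had a pooled summit 107 bp from a start and no optimal one within 3854 bp; it was looked up after the other values had been seen.

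ND-B12, ND-B14, ND-B14.5A, ND-B14.5B, ND-B15, ND-B16.6, ND-B17, ND-B17.2, ND-B18, ND-B22, ND-18, ND-19, ND-MWFE, ND-PDSW and ND-SGDH were the further canonical complex I genes without a pooled summit, besides ND-B14.7. ND-AGGG, ND-MLRQ and the complex III gene UQCR-11 were the farthest from a pooled summit, at 2030561, 393633 and 2175016 bp. All of them lie on 3L and had the same nearest pooled summit, with a signal of 113. The 2 members on chromosome 4, ATPsynbeta and ND-49, were both without a summit in the window. Their nearest optimal summit was the same one, at 533560 and 72866 bp. The share over all genes of that chromosome was not counted. In complexes III to V the rest were UQCR-14, UQCR-6.4, UQCR-Q, COX7A, COX8, ATPsynB, ATPsynF, ATPsynO and ATPsyndelta. Paralogues and the assembly factor made up the remainder: ND-20L, ND-24L, ND-49L, ND-51L1, ND-51L2, ND-B14.5AL, SdhAL, SdhBL, SdhCL, Sdhaf3, UQCR-14L, COX4L, COX5BL, COX6AL, COX6AL2, COX6CL, COX7AL, ATPsynCF6L, ATPsynGL, ATPsynbetaL and ATPsynepsilonL.

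ND-15 was an exception among the long genes, with optimal peaks in its body but none at its starts, where the pooled summit had a signal of 61.4. It spans 41305 bp at 2L:114726-156030, the longest of the members, and 6 optimal summits lay inside it, 6637 to 19154 bp from its starts. The highest, at 2L:129673, had a signal of 2766 (rank 68) in an intron of both ND-15 and CG3164. The others had signals from 309 to 602, and their positions include the 5' UTRs of CG4822 and of Gs1, a glutamine synthetase gene. ND-15 shows how a count within 1000 bp leaves out binding in a gene body. Only ND-39, with 1 optimal summit of signal 408 at 1627 bp from its start, was similar. COX7AL2 was the remaining member with optimal summits inside the gene.

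Replicates differed in how many members they reached. In the full lists of 30000 peaks, 26 members were bound in replicate 1 (28.9%, against 29.2% of other short genes and 38.3% of all genes). In replicate 3 there were 34 (37.8%, against 33.8% and 42.9%). Of these, 24 were bound in both, which is 92.3% of the replicate 1 members and 70.6% of the replicate 3 members. Over other short genes these shares were 90.1% and 77.9%, and over all genes 93.3% and 83.2%. ND-AGGG and ND-B14.7 were bound in replicate 1 alone. In replicate 3 alone there were 10, namely ATPsynE, COX6AL, ND-15, ND-24, ND-B18, ND-SGDH, RFeSP, SdhB, SdhD and UQCR-14. Among the 5723 highest peaks of each replicate, 5 members were bound in replicate 1 (5.56%, against 10.2% of other short genes and 16.1% of all genes). In replicate 3 there were 7 (7.78%, against 11.2% and 17.3%). COX7AL2, ND-ASHI, ND-51 and ATPsynG were in both sets, while ATPsynE, ND-42 and ND-24 were in replicate 3 only and UQCR-6.4L in replicate 1 only.

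**Figure D4:**
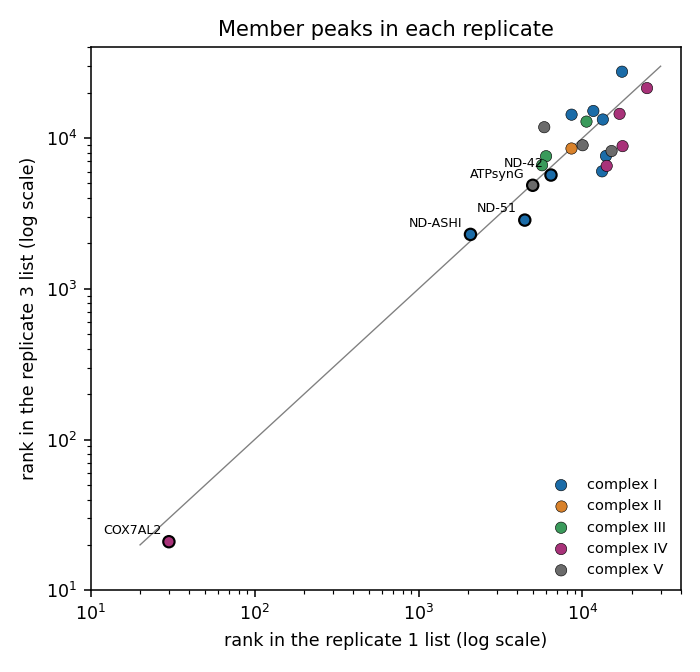
Rank of the replicate peak at each member's strongest pooled summit, in the replicate 1 list (horizontal axis) and the replicate 3 list (vertical axis), both on log scales. Each point is a member with a peak at that summit in both lists (4 lacked one in replicate 1 and 1 in replicate 3). Points are coloured by complex, with heavy outlines for the optimal list. COX7AL2 ranked 30 and 21, while all other members ranked beyond 2000 in both; the grey line marks equal ranks.

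Pooled counts were 4 of 24 paralogues (16.7%) and 23 of 65 canonical genes (35.4%), against 29.5% of other short genes and 38.6% of all genes. The optimal list held 1 paralogue (4.17%), COX7AL2, and 5 canonical genes (7.69%), against 10.6% and 16.5%. The difference between paralogues and canonical genes was not tested. Promoter arrangement moved with this split: 4 of the 24 paralogues (16.7%) and 41 of the 65 canonical genes (63.1%) had a divergent protein-coding start within 1000 bp. Gene length moved with it too, with median spans of 744 bp in paralogues and 1194 bp in canonical genes. Their part in the result was not tested.

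Most of the bound members had a divergent partner, which does not place the summit at the shared promoter. At ATPsynE, whose partner is Afti, the summit was 841 bp downstream and nearest to spn-B. Of all members, 45 (50%) had a divergent partner, against 36.1% of other short genes. Among these 45, 5 (11.1%) were bound in the optimal list and 19 (42.2%) in the pooled list, against 16.2% and 37.1% of divergent other short genes. Among the 45 without a partner, only COX7AL2 (2.22%) was bound in the optimal list and 8 (17.8%) in the pooled list, against 7.49% and 25.3%. In the optimal list the members thus lay below other short genes in both classes. Members with 1 annotated start site had 1 bound gene of 55 in the optimal list (1.82%, against 8.77% of other short genes with 1), and members with 2 start sites had 3 of 30 (10%, against 20.1%). With 3 start sites the order was the other way, at 2 of 5 members (40%, against 33.6%) in the optimal list and 4 (80%, against 57.8%) in the pooled list.

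Motifs were searched on both strands within 50 bp of each member's strongest summit. The receptor hexamer searched as AGGTCA, or in the form GGGTCA, or in the form AGTTCA, or in the form GGTTCA, occurred at none of the 6 optimal member summits, against 677 of 2534 optimal summits near protein-coding starts (26.7%). Among pooled summits it occurred at 2 of 27 members (7.41%), ND-B8 and ND-39, against 1885 of 9821 such summits (19.2%). AGGTCA itself was present at ND-B8 alone (3.70%, against 5.30%). DR1, a direct repeat of the hexamer with 1 base between, was at no member, and at 0.295% of all such pooled summits.

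Both windows with a hexamer are printed with 2 that hold other promoter motifs, to show how these sites lie. They are ND-B8 at 2L:4454458-4454558, ND-39 at 3L:20494360-20494460, ND-15 at 2L:114575-114675 and ND-MNLL at X:7893867-7893967, plus strand, release 6, with motif matches in capitals.
ND-B8: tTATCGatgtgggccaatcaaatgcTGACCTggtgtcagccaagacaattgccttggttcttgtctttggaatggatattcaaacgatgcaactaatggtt
ND-39: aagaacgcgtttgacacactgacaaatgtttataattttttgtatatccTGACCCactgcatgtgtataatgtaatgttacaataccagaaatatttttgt
ND-15: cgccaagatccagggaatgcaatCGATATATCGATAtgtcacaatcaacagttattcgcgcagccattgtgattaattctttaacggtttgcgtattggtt
ND-MNLL: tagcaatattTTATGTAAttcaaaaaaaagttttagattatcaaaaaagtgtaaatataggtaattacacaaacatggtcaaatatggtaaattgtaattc
At ND-B8 the capitals are CGATA on the minus strand and AGGTCA on the minus strand, 22.5 bp from the summit to its centre. ND-39 carries GGGTCA on the minus strand, 1.5 bp from the summit. ND-15 has the DRE motif TATCGATA, the site of the replication-related factor DREF, with 2 copies of CGATA inside it and another that ends on the base before it. ND-MNLL has TTATGTAA, a form of the element described in promoters of fly nuclear respiratory genes, which was searched as TTACATAA, TTACGTAA, TTATATAA and TTATGTAA.

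CGATA was the most frequent of the searched motifs at members. It lay within 50 bp at 9 of 27 member summits (33.3%), against 1524 of 9821 pooled summits near starts (15.5%), and within 100 bp at 16 (59.3%, against 28.5%). At the 6 optimal member summits it was at 2 (33.3%) in both windows. The optimal summits near starts had 15.6% within 50 bp and 28.7% within 100 bp, so the wider window left a small difference. DRE sites contain CGATA, so these counts overlap. TATCGATA was within 100 bp at ND-15, ND-MNLL, SdhC, Cyt-c1 and ATPsynD (18.5%, against 2.22%), and within 50 bp at ND-15 alone (3.70%, against 1.12%). The respiratory gene element was within 100 bp at ND-42, ND-MNLL, SdhD and ATPsynD (14.8%, against 3.11%). Within 50 bp it was at ND-MNLL alone (3.70%, against 1.59%). CACGTG, the E-box, was found at COX7C alone, within 50 bp (3.70%, against 1.31%) and within 100 bp (3.70%, against 2.75%). The ETS motif CCGGAAG and the NRF1 core GCGCANGC were at no member within 100 bp, against 0.815% and 2.92%. GGTCACACT, the M1BP motif, was at ND-13A alone within 100 bp (3.70%, against 1.38%). It was at no member within 50 bp, against 0.672%. These matches describe letters in the windows, and binding by the other factors was not measured here.

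Genes of related functions outside the symbol rule were counted in 8 lists, to be read against the optimal shares of 10.6% in other short genes and 16.5% in all genes, and the pooled shares of 29.5% and 38.6%. The 2 cytochrome c genes, which carry electrons between complexes III and IV, both had optimal summits: Cyt-c-p with a signal of 1386 (rank 341) at 928 bp and Cyt-c-d with 847 at 369 bp, nearer to a start of CG31808. Cyt-c1L had 496, so that 3 of the 6 genes of this list (50%) were bound in the optimal list and 5 (83.3%) in the pooled list. The subunits of cytochrome c oxidase in it, cype and levy, had only pooled summits of 116 and 217, and sun had none. The list leaves out blw, which had a pooled summit in the window but no optimal one. In the citric acid cycle and pyruvate dehydrogenase list, 9 of 22 genes (40.9%) had an optimal summit and 16 (72.7%) a pooled one. Its highest signals were 1244 at Idh, an isocitrate dehydrogenase, 909 at Idh3g, also an isocitrate dehydrogenase subunit, 831 at Scsalpha1, a succinyl-CoA synthetase subunit, and 657 at Idh3a. Fum1 is counted there through the peak that it shares with ND-ASHI. Median span in that list was 3059 bp, longer than the members' 1100 bp, and genes over 3000 bp were bound in 26% of cases among non-members.

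**Figure D5:**
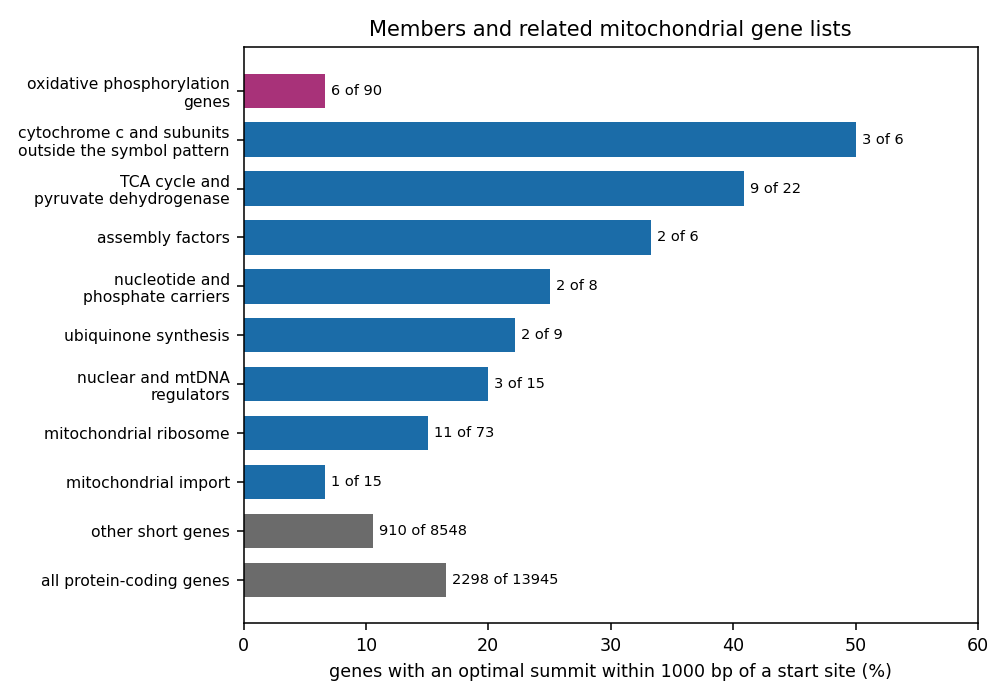
Share of genes bound in the optimal list (horizontal axis, %) for the members (top), 8 lists of related mitochondrial genes, other short genes and all protein-coding genes, with counts beside the bars. Members stood at 6 of 90 and the citric acid cycle list at 9 of 22.

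Assembly factors had 2 of 6 matched genes (33.3%) bound in either list, CIA30 of complex I with a signal of 1406, nearest to a start of CG7601, and Cox17, a copper chaperone of cytochrome c oxidase, with 390. Ubiquinone synthesis had 2 of 9 in the optimal list (22.2%) and 3 (33.3%) in the pooled list, with qless at 5789 and Coq2 at 620, and the qless peak also counted for mRpL32. Of the nucleotide and phosphate carriers 2 of 8 (25%) were bound in the optimal list, Ucp4A with 2609 and porin with 281, and 5 (62.5%) in the pooled list. Regulators had 3 of 15 in both lists, a share of 20% that is near the background in the optimal list and below the members' 30% in the pooled list, namely ERR with 505, mtSSB with 485 and mtTFB1 with 333; srl, ewg, Ets97D and TFAM had no summit in the window in either list. The mitochondrial ribosome, with short genes of median span 909 bp, had 11 of 73 (15.1%) in the optimal list and 25 (34.2%) in the pooled list, led by mRpL32, mRpS10 (2133), mRpL41 (1843) and mRpS23 (1782). Mitochondrial import had 1 of 15 (6.67%), Tim10 with 583, the same share as the members, and 7 (46.7%) in the pooled list. These lists were chosen with earlier results known, and their differences from the members were not tested. Besides CIA30 and mRpL32, the nearest start belonged to another gene at Ucp4A (CG8142), Coq2 (Ctr1B), mtTFB1 (CG11658), mRpS23 (CenG1A) and Tim10 (Ppcdc and CG42496).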

How the data were processed

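Peak lists of 2 biological replicates of Hr78-GFP ChIP-seq were analysed, from chromatin sheared to 200 to 800 bp. Each replicate's dm6 alignment was set against a control alignment to call peaks, likewise both replicates together, and reproducible peaks were kept by irreproducible discovery rate as the optimal list, per the deposited text files. Caller, aligner and threshold were not given in the sources used here. Peak signal was deposited by the authors as the caller's value against the control; its scale differs between lists, so replicates were compared by rank. The authors deposited −log10 of each q-value, and a value of 1.3 or more was taken as q at most 0.05. Summit positions were deposited by the authors as offsets in bp. Depth is unknown and limits the precision of every signal.

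Positions were compared with Ensembl annotation release 115 (BDGP 6.54) and genome release 6, and no peak extended beyond the end of its arm. Members, backgrounds, replicate ranks (the highest replicate peak holding the summit, or the nearest summit within 200 bp) and motifs were computed with Python 3.11.15, numpy 2.4.6 and pandas 2.3.3; figures were drawn with matplotlib 3.10.9. A divergent partner was a protein-coding start on the other strand at most 1000 bp upstream. Window assignment was tested on simulated data. Members and lists were chosen with earlier results of these data known. The text names every bound member of the optimal list, the next 12 by pooled signal, members without a summit, neighbours at shared promoters and up to 4 genes per related list by signal; other genes were chosen after their values were seen. ND-MNLL, named for its subunit, was counted as canonical. Symbols not matched by the annotation, 11 in 3 related lists and partly other spellings of matched genes, were left out. No test was made, since there is 1 group.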

Additional observations from a re-analysis of the deposited data

How the results depend on the processing

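The pooled count of 27 members stayed within 1.5 times under all alternatives run, from 20 (summits nearest to the member's own start) to 34. The optimal count of 6 members moved by more than 1.5 times under several. With windows of 500 bp it was 3 (complexes IV and V at 0), and with 2000 bp it was 12 (complex II at 1, IV at 3, V at 4). It was 3 with only own-start summits (complex V at 0) and 2 in the higher-signal part of the list (complex I at 1, V at 0). No list was remade without a replicate. Instead, the highest peaks of 1 replicate, as many as the optimal or pooled list holds, repeated the replicate counts given above. Among the 5723 highest peaks these were 5 members in replicate 1 and 7 in replicate 3, and in the full lists 26 and 34. By complex, III ran from 0 to 1 and V from 1 to 2 among the 5723 highest peaks. In the full replicate lists, II ran from 1 to 3 and III from 3 to 5. Paralogues and the assembly factor left out, 5 optimal and 23 pooled members were bound of the 65 others, or 22 pooled when ND-MNLL was left out too. In the pooled list complex II had 1 member in the higher-signal part and at q of at most 0.05, complex III had 5 within 2000 bp, and complex V had 3 within 500 bp and 2 with own-start summits.

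Optimal shares of other short genes and of all genes moved with the same settings: 8.39% and 13% (500 bp), 15.5% and 21.9% (2000 bp), 7.25% and 13.4% (own start), 11.7% and 17.8% (overlap of the region), 6.28% and 9.95% (higher-signal part, above the median). The members' share stayed below both under each of these and among the 5723 highest peaks of each replicate, at 2.22% to 13.3%. Pooled shares were 23.8% and 33.1%, 37.4% and 45.1%, 22.9% and 33.1%, 31.6% and 40.4%, and 20.5% and 29.7% in the same order, and 26.4% and 35.7% at q of at most 0.05. Only the 5'-most start of a gene gave 14% of all genes in the optimal list and 37% in the pooled list. Leaving out 1 replicate gave pooled shares of 29.2% and 33.8% of other short genes and 38.3% and 42.9% of all genes, and optimal shares of 16.1% and 17.3% of all genes. Short genes up to 2000 bp, up to 5000 bp and with 1 start site gave 9.26%, 12.3% and 8.77% in the optimal list and 27.2%, 31.8% and 26.6% in the pooled list. Within 100 bp in place of 50 bp, motif counts rose at members, and shares rose over all pooled summits near starts. Of the 27 member summits, AGGTCA was at 2 (7.41%, against 8.7%) and any of the 4 hexamer forms at 5 (18.5%, against 31.9%). CGATA was at 16 (59.3%, against 28.5%) and TATCGATA at 5 (18.5%, against 2.22%). The respiratory gene element was at 4 (14.8%, against 3.11%) and the M1BP motif at 1 (3.7%, against 1.38%). At the 6 optimal summits the respiratory gene element was at 1 (16.7%, against 3.47%), and CGATA stayed at 2 (33.3%, against 28.7%). The cause of these changes was not tested. The alternatives at q of at most 0.05 and with ND-MNLL kept were chosen after seeing the data. No paired analysis was possible because there is 1 group. Unknown depth limits all counts near the end of the pooled list.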
